A study of Bos taurus with 24 samples.

Results

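Growth hormone, insulin-like growth factor 1 and prolactin signalling was described here through 4 genes out of the 24616 in the count files: IGF1 (ENSBTAG00000011082), the growth factor itself, GHR (ENSBTAG00000001335), the growth hormone receptor, PRLR (ENSBTAG00000025035), the prolactin receptor, and STAT5A (ENSBTAG00000009496), a transcription factor that both receptors activate. They were chosen by identifier and not by a rule on their values, though with earlier results of these data known. All 4 were found in each of the 24 files. The files do not pair identifiers with names. The symbols are those given with the choice of the genes, and no table at hand linked the identifiers to them. The animals were 12 dairy cows (Bos taurus) in lactation, each of which gave a liver and a mammary gland library. Over 12 weeks the forage had been alfalfa hay for 6 cows and corn stover (maize residue after the grain harvest) for the other 6, so each combination of tissue and diet held 6 libraries. Days in milk were 231 to 246 in the alfalfa hay cows and 228 to 254 in the corn stover cows. Corn stover replicates 1 to 4, at 252 to 254 days, lay above every alfalfa hay cow, so diet and days in milk went partly together. In each diet 1 cow was of parity 2 and the others were of parity 3.

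Growth hormone from the pituitary binds GHR in liver, where the kinase JAK2 and the STAT5 proteins pass the signal on to the nucleus and drive transcription of IGF1. The liver is the main source of circulating IGF1, which feeds back on the pituitary. Prolactin acts through PRLR, a receptor of the same cytokine receptor class, and in mammary epithelium STAT5A activates milk protein genes and maintains lactation. In the dairy cow, growth hormone supports milk yield, and the coupling of growth hormone to hepatic IGF1 is known to weaken when energy is short.

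Library totals ran from 22579051 to 37954234 reads. The level of a gene is given as normalised CPM, its reads relative to the library total after scaling by the TMM factors of edgeR, within a tissue unless stated. Alfalfa hay replicate 1 and corn stover replicate 1 stood apart in liver, with TMM factors of 0.700 and 0.778 against 0.982 to 1.17 in the other livers, which raises every level in these 2 libraries. In the livers, 11 genes typical of mammary gland reached 147 to 296 ppm of their level in the gland in alfalfa hay replicates 1 to 5 and 1.45 to 38.9 ppm in the other 7. In the mammary libraries, 60 genes typical of liver reached 70.8 to 1976 ppm of their liver level, highest in corn stover replicates 2, 3 and 4. Known marker genes of the tissues could not be looked up without names.

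The comparison of the tissues asked where the parts of the axis are transcribed. IGF1, GHR and PRLR were lower and STAT5A was higher in mammary gland than in liver. All 4 genes passed the test (quasi-likelihood test of edgeR over 13760 genes, adjusted p below 0.05), as did 68.2% of all genes tested, 34.7% lower and 33.5% higher in mammary gland. At an unadjusted p below 0.05 all 4 counted too, against 70.7% of all genes, 35.7% lower in mammary gland. For this comparison levels were scaled over all 24 libraries. The fit did not pair the liver and mammary library of a cow. With each cow as its own block the edgeR adjusted p was 3.39e-12 for IGF1, 1.19e-10 for GHR and 1.12e-11 for STAT5A. A lower level in a whole tissue can come from fewer cells that express a gene or from less RNA per cell, and these cannot be told apart here.

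IGF1 had the widest gap of the 3 liver-high genes. It stood at 5.96 to 35.2 CPM in liver, with a median of 13.03, and at 0.170 to 1.3 CPM in mammary gland, with a median of 0.578. No mammary library reached the lowest liver. The fitted difference was -4.58 ± 0.28 on the log2 scale, 23.9-fold lower (SE; edgeR adjusted p = 8.60e-14). The mammary level rests on few reads, 3 to 22 per library and 132 in all, against 269 to 1464 per liver. If the members shared the rate of liver-type reads in each mammary library, carry-over from the highest liver level would account for 0.98% to 23.3% of the mammary IGF1 level, the latter in corn stover replicate 3.

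GHR stood at 67.1 to 255 CPM in liver, with a median of 139, and at 14.8 to 27.6 CPM in mammary gland, with a median of 20.2. The ranges did not overlap. The difference was -2.80 ± 0.16 on the log2 scale, 6.97-fold lower in mammary gland (SE; edgeR adjusted p = 3.21e-14). Carry-over at the rate of liver-type reads would give at most 2.84% of the mammary GHR level.

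PRLR differed least. It stood at 16.4 to 213 CPM in liver, with a median of 58.4, and at 9.87 to 30.7 CPM in mammary gland, with a median of 20.8. The ranges overlapped, since 4 of 12 mammary libraries lay below all livers. Within each cow the mammary level was the lower in 12 of 12 animals, by 0.10 to 2.98 on the log2 scale. The share of all genes with the same direction in all 12 cows was not computed. The fitted difference was -1.90 ± 0.37 on the log2 scale, 3.73-fold lower in mammary gland (SE; edgeR adjusted p = 5.60e-05), and -1.47 when each cow was its own block (edgeR adjusted p = 0.000203).

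STAT5A went the other way. It stood at 2.08 to 7.36 CPM in liver, with a median of 3.83, and at 34.3 to 87.8 CPM in mammary gland, with a median of 55.0. Every mammary library lay above every liver. The difference was 3.53 ± 0.20 on the log2 scale, 11.6-fold higher in mammary gland (SE; edgeR adjusted p = 1.69e-14). Full separation of the 12 livers and 12 mammary libraries, seen in IGF1, GHR and STAT5A, held for 10.8% of all genes with mammary gland above and 13.6% with mammary gland below. In the RefSeq gene table (assembly ARS-UCD2.0) STAT5A lies next to STAT5B, a close paralog, and how reads shared by the pair were assigned is not given in the sources used here.

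**Figure D1:**
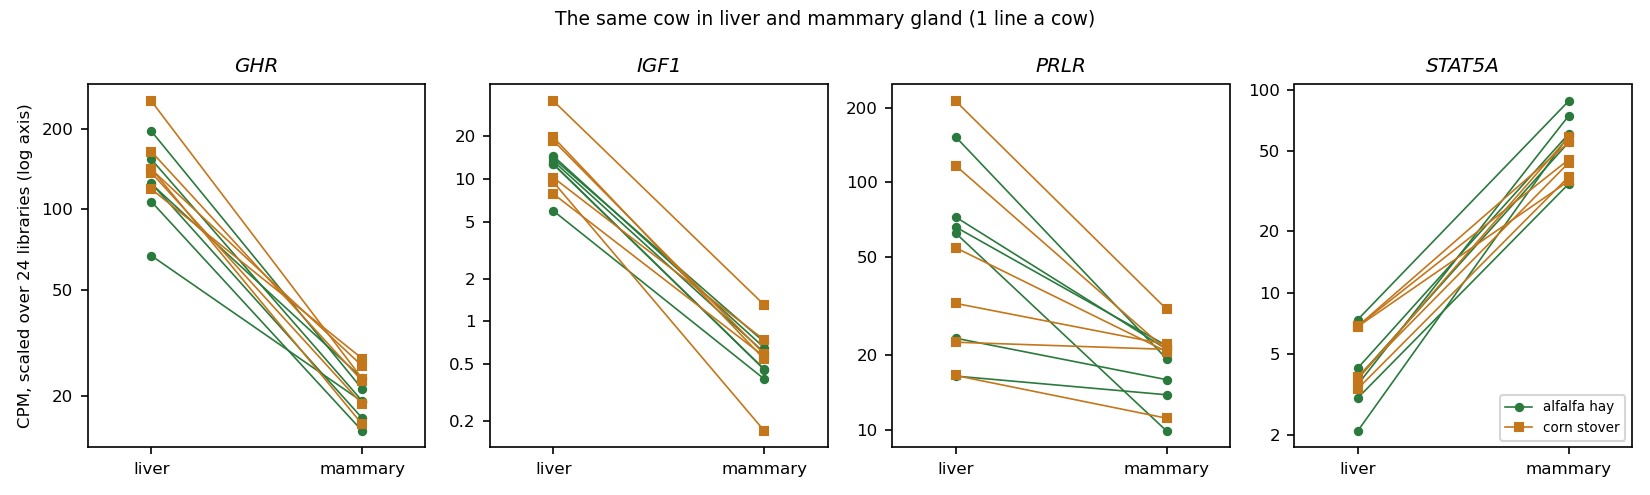
CPM scaled over 24 libraries on a log axis, in liver and in mammary gland, for each of 12 cows (1 line a cow, green circles for alfalfa hay and orange squares for corn stover). IGF1, GHR and PRLR fell from liver to mammary gland and STAT5A rose in each of the 12 cows, and the PRLR lines start from 16.4 to 213 CPM and end between 9.87 and 30.7 CPM.

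The size of these differences depended on the scaling. With library totals in place of TMM the median of all genes moved from -0.016 to -1.0 on the log2 scale. The differences were then -5.56 for IGF1, -3.73 for GHR, -2.76 for PRLR and 2.55 for STAT5A. Relative to the median gene they were -4.56, -2.73, -1.76 and 3.55, against -4.56, -2.78, -1.88 and 3.55 with TMM. The directions were the same under each scaling.

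The diet comparison in liver asked whether the forage altered the hepatic side of the axis. All 4 genes had higher fitted values on corn stover and 0 of 4 passed the test (edgeR quasi-likelihood test, 12929 genes), against 0% of all genes. At an unadjusted p below 0.05 there were 0 of 4, against 2.74% of all genes (1.28% with lower values on corn stover), and DESeq2 and limma voom called 0 of 4 as well. The median log2 difference of the 4 genes was 0.32. Over all genes tested the median was 0.0036, and the median size without regard to sign was 0.164. Fitted values were higher on corn stover in 6544 of the 12929 genes. In none of the 4 did the 6 livers of one diet all lie on one side of the other diet, which held for 0.0619% of all genes. Fold ranges in parentheses are 95% intervals of the fit for corn stover over alfalfa hay.

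Hepatic IGF1 ranged from 8.33 to 20.6 CPM on alfalfa hay, with a median of 18.5, and from 10.9 to 49.1 CPM on corn stover, with a median of 20.2. On alfalfa hay 5 livers lay close together, from 17.95 to 20.6 CPM, and replicate 6 stood alone at 8.33 CPM. On corn stover the livers spread out, with 3 above all alfalfa hay livers (replicates 1, 3 and 4 at 26.8, 25.8 and 49.1 CPM) and 3 at 10.9 to 14.6 CPM. The means were 23.4 ± 14.2 and 17.3 ± 4.50 CPM (SD, n = 6), and the log2 difference was 0.44 ± 0.34 (SE; edgeR adjusted p = 1.0), with a 95% interval of 0.821-fold to 2.23-fold. Without corn stover replicate 4 it was 0.080, and with days in milk as a covariate it was -0.087.

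Hepatic GHR ranged from 93.8 to 280 CPM on alfalfa hay, with a median of 178, and from 165 to 349 CPM on corn stover, with a median of 200. The groups overlapped apart from corn stover replicate 1, the highest of all. The highest value of each diet was that of replicate 1, whose scaling factor is low. Per library total these 2 livers were at 196 and 272 CPM, and the alfalfa hay group ran from 102 to 215 and the corn stover group from 192 to 272 CPM. The mean was 183 ± 62.8 CPM with alfalfa hay and 223 ± 65.5 CPM with corn stover (SD, n = 6), and the log2 difference was 0.28 ± 0.25 (SE; edgeR adjusted p = 1.0; 0.839-fold to 1.76-fold). It was 0.12 without corn stover replicate 1, 0.14 without alfalfa hay replicate 6, 0.45 without alfalfa hay replicate 1 and 0.27 without the first replicate of both diets.

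Hepatic PRLR varied most between cows. It ranged from 23.2 to 218 CPM on alfalfa hay, with a median of 91.5, and from 23.6 to 293 CPM on corn stover, with a median of 60.4. The highest liver was 9.38-fold above the lowest on alfalfa hay and 12.4-fold on corn stover. Alfalfa hay replicates 3 and 6 and corn stover replicates 2, 3 and 6 lay at 23.2 to 44.9 CPM, while alfalfa hay replicate 5 and corn stover replicates 1 and 4 lay at 163 to 293 CPM. These levels rest on 688 to 6752 reads per liver. The spread within diets was 1.3 on the log2 scale (SD), and 3.83% of the 12929 genes tested in liver had a larger one. Among the 6465 genes in the upper part by mean level, where PRLR lies, it was 0.944%. The spreads of GHR, IGF1 and STAT5A were 0.46, 0.67 and 0.55, beside a median of 0.46 over all genes. In the upper part by mean level, where GHR and IGF1 also lie, the median was 0.364. There 30.7% of genes had a larger spread than GHR and 10.3% a larger one than IGF1.

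The diet difference of hepatic PRLR was 0.17 ± 0.62 on the log2 scale (SE; edgeR adjusted p = 1.0; 0.455-fold to 2.80-fold). Its sign turned without corn stover replicate 1 (-0.45), without alfalfa hay replicates 3 or 6, among parity 3 cows (-0.42) and with days in milk as a covariate (-0.29). No direction can be given for it.

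Hepatic STAT5A ranged from 2.97 to 10.4 CPM on alfalfa hay, with a median of 5.18, and from 4.80 to 9.54 CPM on corn stover, with a median of 7.36. The corn stover range lay inside that of alfalfa hay. The corn stover livers formed 2 sets, replicates 1 to 3 at 4.80 to 5.29 CPM and replicates 4 to 6 at 9.42 to 9.54 CPM. The log2 difference was 0.36 ± 0.30 (SE; edgeR adjusted p = 1.0; 0.826-fold to 1.99-fold). It was 0.62 without alfalfa hay replicate 3, the highest liver of all (edgeR unadjusted p = 0.0386, adjusted p = 1.0). Reads typical of mammary gland would give at most 0.961% of the hepatic STAT5A level.

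**Figure D2:**
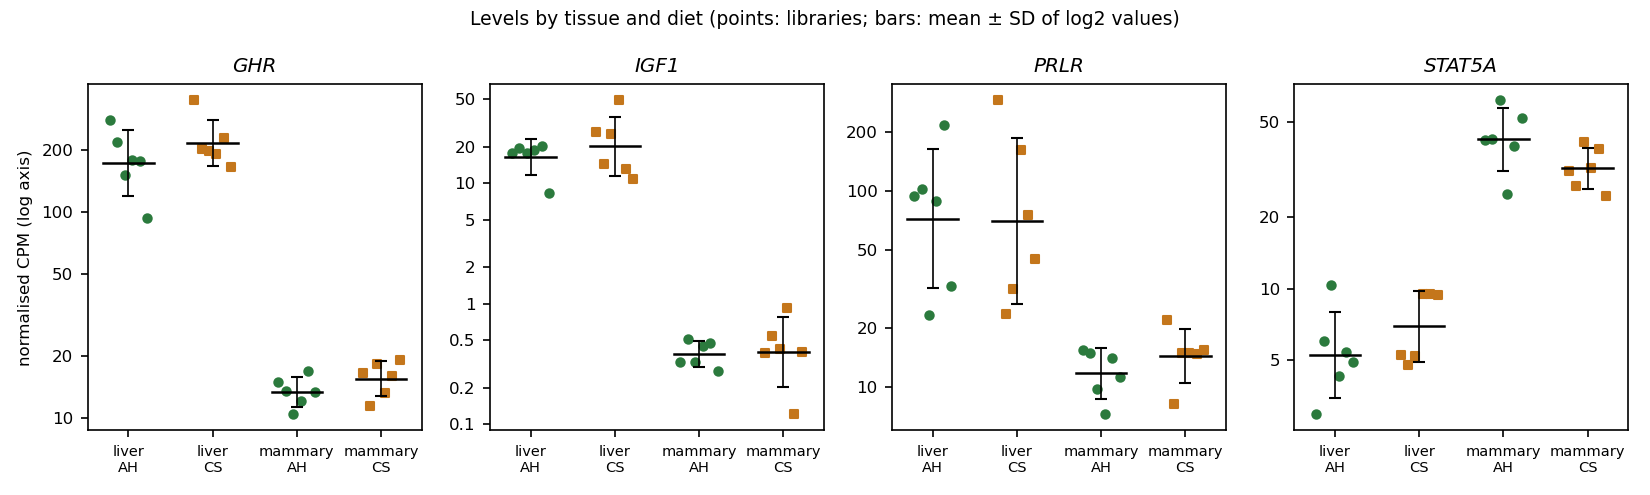
Normalised CPM, scaled within a tissue, on a log axis for 4 groups of 6 libraries (AH, alfalfa hay; CS, corn stover); points are libraries, and bars show the mean ± SD of the log2 values. Diets overlap in each panel and tissue, and liver PRLR spans 23.2 to 293 CPM.

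The count columns of alfalfa hay livers 1 to 5 carry the letter of the tissue in their header, and those of the remaining 7 do not; the 5 are also those with the most mammary-type reads. A term for this difference in headers leaves a diet difference that rests on alfalfa hay replicate 6 alone, the liver with the lowest GHR and IGF1. The log2 differences were then 1.25 for GHR, 1.49 for IGF1, 1.68 for PRLR and 0.57 for STAT5A, and 0 of 4 passed the test (edgeR adjusted p = 1.0 each). The 5 livers are of 1 diet, so no diet difference can be taken within them.

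In mammary gland, where prolactin and growth hormone act on the milk-producing cells, 0 of the 3 genes tested passed (edgeR quasi-likelihood test, 12027 genes), against 0% of all genes, and DESeq2 and limma voom called none of them. At an unadjusted p below 0.05 there was 1 of 3, STAT5A, against 6.52% of all genes, 2.89% with lower values on corn stover. No gene of the 3 had its diets fully apart, as 0.341% of all genes did. IGF1 did not pass the filter on low counts. The median log2 difference of the 3 was 0.22, which is the GHR value, and STAT5A was at -0.43. Over all genes tested the median was 0.0014, and the median size without regard to sign was 0.193.

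Mammary STAT5A ranged from 25.1 to 61.9 CPM on alfalfa hay, with a median of 42.3, and from 24.6 to 41.4 CPM on corn stover, with a median of 31.6. On alfalfa hay 5 of 6 libraries lay at 39.8 CPM or above and replicate 4, the deepest library, at 25.1 CPM. On corn stover replicate 3 reached that range, at 41.4 CPM, replicate 5 lay just below it, at 38.8 CPM, and the other 4 lay at 24.6 to 32.2 CPM. The mean was 43.9 ± 12.4 CPM with alfalfa hay and 32.5 ± 6.53 CPM with corn stover (SD, n = 6). The log2 difference was -0.43 ± 0.20 (SE; 95% interval -0.87 to -0.0016; edgeR unadjusted p = 0.0492, adjusted p = 0.762). It was negative under every alternative run. The extremes were -0.55, with the fourth alfalfa hay library left out, and -0.31, with the third left out, and the adjusted p ran from 0.471 to 1.0. Without corn stover replicates 2, 3 and 4, which had the most liver-type reads, it was -0.48 (edgeR unadjusted p = 0.101). With 1 library left out in turn the edgeR unadjusted p ran from 0.00766 to 0.154. It was 0.148 with library totals, 0.0506 with no filter on low counts and 0.0484 with RLE.

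Mammary PRLR ranged from 7.20 to 15.5 CPM on alfalfa hay, with a median of 12.6, and from 8.09 to 21.9 CPM on corn stover, with a median of 14.9. The highest was corn stover replicate 1 and the lowest alfalfa hay replicate 4, and the remaining libraries overlapped. The log2 difference was 0.31 ± 0.23 (SE; edgeR adjusted p = 0.905; 0.882-fold to 1.74-fold). It was 0.18 without corn stover replicate 1, 0.20 without alfalfa hay replicate 4 and 0.52 without corn stover replicates 2, 3 and 4. Mammary GHR ranged from 10.4 to 16.9 CPM on alfalfa hay, with a median of 13.4, and from 11.4 to 19.2 CPM on corn stover, with a median of 16.3. Corn stover replicates 3 and 6 lay above all alfalfa hay libraries. The log2 difference was 0.22 ± 0.17 (SE; edgeR adjusted p = 0.909; 0.907-fold to 1.5-fold), and 0.35 without corn stover replicates 2, 3 and 4. GHR was among the steadier genes of the gland: 88.6% of genes tested there had a larger spread within diets. Among genes in the upper part by mean level, where GHR lies, it was 79.2%.

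Mammary IGF1 ranged from 0.277 to 0.504 CPM on alfalfa hay, with a median of 0.383, and from 0.120 to 0.927 CPM on corn stover, with a median of 0.405. The lowest and the highest library, replicates 5 and 4 of corn stover, held 3 and 22 reads. In a fit with no filter on low counts the log2 difference was 0.24 ± 0.51 (SE; edgeR adjusted p = 0.936). Without corn stover replicate 5, the library with 3 reads, IGF1 passed the filter and the difference was 0.44 (edgeR adjusted p = 0.886).

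**Figure D3:**
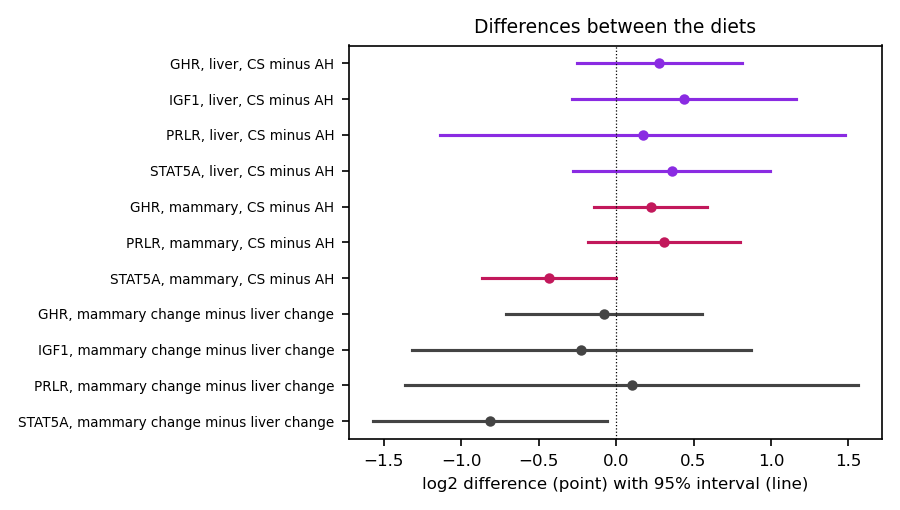
Fitted log2 differences (points) with 95% intervals (lines) for corn stover minus alfalfa hay in liver and in mammary gland, and for the mammary change minus the liver change (interaction). Intervals of all but 2 values include 0; the exceptions, STAT5A in mammary gland at -0.43 and its interaction at -0.82, did not pass the adjusted threshold.

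The interaction asked whether the diet difference was the same in both tissues. None of the 4 genes passed (edgeR quasi-likelihood test, 13760 genes, 0% of all genes called), and 0 did with limma voom. DESeq2 gave no adjusted p for any of the 4. At an unadjusted p below 0.05 there was 1 of 4, against 5.09% of all genes (1.93% with negative values). This was STAT5A, whose mean on corn stover was higher in liver (7.30 ± 2.41 against 5.68 ± 2.54 CPM) and lower in mammary gland. Its interaction was -0.82 ± 0.37 on the log2 scale (SE; edgeR unadjusted p = 0.0353, adjusted p = 0.919). That fit did not pair the libraries of a cow. Blocking by cow gave -0.82 with an SE of 0.31 (edgeR unadjusted p = 0.018, adjusted p = 1.0). With 1 cow left out in turn, the edgeR unadjusted p of the unblocked fit ran from 0.00862 to 0.0999. With library totals it was 0.0789. The interactions of GHR, IGF1 and PRLR were -0.077 ± 0.31, -0.22 ± 0.53 and 0.10 ± 0.71 (SE; edgeR adjusted p = 1.0 each).

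The hepatic levels were then set against the milk yield of the same cow. Yield was 23.3 to 29.0 kg per day in the alfalfa hay cows and 17.1 to 23.3 kg per day in the corn stover cows, so diet and yield went together. Over 12 cows, 8 relations of yield with the log2 level were computed, 4 genes in 2 tissues, and 0 passed after adjustment over the 8. In liver, Pearson's r was -0.027 for GHR (permutation p = 0.936, adjusted 0.995; Spearman's rho = -0.014, permutation p = 0.974). It was 0.047 for IGF1 (permutation p = 0.888, adjusted 0.995; rho = 0.14, permutation p = 0.667). PRLR had an r of 0.192 (permutation p = 0.547, adjusted 0.995; rho = 0.196, permutation p = 0.543) and STAT5A one of -0.227 (permutation p = 0.477, adjusted 0.995; rho = -0.14, permutation p = 0.670). Without alfalfa hay cow 2 and corn stover cow 6, the farthest from the median yield, r was -0.206, -0.21, 0.075 and -0.082 in the same order.

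Within diets the values differed from the pooled ones. Among the corn stover cows hepatic GHR was low at the lowest yields and high at the highest: the lowest level, 165 CPM, was in the cow giving 17.1 kg per day, the next, 191 CPM, in the cow giving 19.6 kg, and the highest, 349 CPM, in the cow giving 23.3 kg, and the 3 cows giving 20.5, 20.7 and 21.0 kg were at 230, 203 and 197 CPM. The r was 0.885 (exact permutation p = 0.0389, adjusted over 16 within-diet relations 0.622; rho = 0.771, exact permutation p = 0.103), and 0.819 over the 5 cows without replicate 1. Corn stover replicate 1 was the only cow of parity 2 on that diet, so its yield and its parity cannot be told apart. Corn stover replicate 6, with the lowest yield, was at 228 days in milk, against 245 to 254 in the other cows of that diet. No relation with yield was adjusted for days in milk. On alfalfa hay the r was 0.237 (exact permutation p = 0.667), and -0.303 without replicate 6. For IGF1 it was 0.529 with alfalfa hay and 0.372 with corn stover (exact permutation p = 0.208 and 0.460), and for PRLR 0.214 and 0.416 (exact permutation p = 0.644 and 0.431). Without corn stover cow 6 the IGF1 value on corn stover was -0.113, and without corn stover cow 1 the PRLR value was -0.187; without alfalfa hay cow 5 the PRLR value on alfalfa hay was -0.116. For STAT5A the signs were opposite, 0.637 on alfalfa hay and -0.664 on corn stover (exact permutation p = 0.172 and 0.153), and the difference between the diets was not tested.

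**Figure D4:**
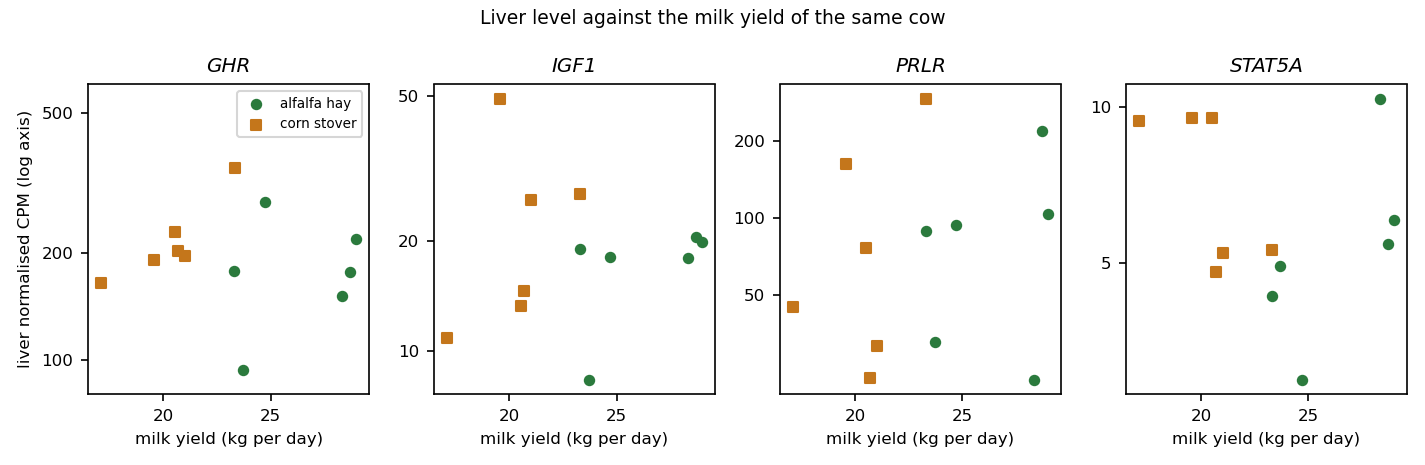
Liver normalised CPM on a log axis against milk yield in kg per day, 1 point a cow, green circles for alfalfa hay and orange squares for corn stover. Over all 12 cows r lies between -0.227 and 0.192 in the 4 panels; among the corn stover cows GHR is lowest, 165 CPM, at the lowest yield and highest, 349 CPM, at the highest.

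A fit across all 12929 genes with diet and yield together gave the slope of the log2 level per kg of milk within diets. All 4 slopes were positive, as were those of 6728 of all 12929 genes. Of the 4, 0 passed the test (edgeR quasi-likelihood test), against 0% of all genes. At an unadjusted p below 0.05 there were 0 of 4, against 1.49% of all genes (0.456% with negative slopes). DESeq2 and limma voom called 0 of 4. The steepest was PRLR, at 0.23 ± 0.13 per kg (SE; edgeR unadjusted p = 0.0901, adjusted p = 1.0). It was 0.11 without corn stover replicate 1 (edgeR unadjusted p = 0.461), 0.12 among parity 3 cows and 0.075 without diet in the fit. The slopes of IGF1, GHR and STAT5A were 0.086 ± 0.081, 0.082 ± 0.056 and 0.034 ± 0.072 (SE; edgeR adjusted p = 1.0 each). Without diet in the fit these 3 slopes were -0.022, -0.00091 and -0.029. With 1 cow left out in turn they ran from 0.035 to 0.13, from 0.041 to 0.11 and from -0.013 to 0.083, lowest without corn stover replicate 6, corn stover replicate 1 and alfalfa hay replicate 3. Among parity 3 cows they were 0.092, 0.024 and 0.079. For comparison, mammary STAT5A had the highest r with yield of the 8 relations, 0.627 (permutation p = 0.0303, adjusted 0.242; rho = 0.699, permutation p = 0.0144, adjusted 0.115). It was 0.526 without the 2 farthest cows (permutation p = 0.117), and 0.411 on alfalfa hay and 0.450 on corn stover (exact permutation p = 0.443 and 0.367).

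Whether the parts of the axis varied together between cows was examined in 12 pairs, 6 in each tissue, and 0 passed after adjustment. Of these the receptors of the gland came closest. Mammary GHR and PRLR had an r of 0.732 (permutation p = 0.00676, adjusted 0.0811; rho = 0.692, permutation p = 0.0160, adjusted 0.193), 0.745 without the 2 cows farthest from the median GHR, and 0.694 on alfalfa hay and 0.686 on corn stover (exact permutation p = 0.122 and 0.126). With library totals in place of TMM it was 0.910 and passed (permutation p = 1e-05, the smallest the resamples can give, adjusted 0.00012). Per library total, alfalfa hay replicate 4 (TMM factor 0.717) was lowest and corn stover replicate 1 (1.38) highest in both genes. A factor of the library that is not scaled out enters the levels of both genes. How often other gene pairs reach such an r was not tested.

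In liver, where growth hormone acts through GHR on IGF1 transcription, GHR and IGF1 had an r of 0.491 (permutation p = 0.103, adjusted 0.309, and rho = 0.385, permutation p = 0.221). Without alfalfa hay cow 6 and corn stover cow 1, the 2 farthest from the median GHR level, it was 0 to 2 decimals (-2.0e-05). Leaving out the ends of a range can by itself lower r, so this step cannot show that the relation rests on those cows. Alfalfa hay cow 6 was lowest of all 12 livers in both genes. Within diets the r of GHR and IGF1 was 0.798 for alfalfa hay and 0.227 for corn stover (exact permutation p = 0.0944 and 0.683). GHR and PRLR had an r of 0.559 (permutation p = 0.0550, adjusted 0.269; rho = 0.441, permutation p = 0.154), which was 0.265 without the same 2 cows, and 0.584 and 0.673 within the diets (exact permutation p = 0.212 and 0.133). IGF1 and PRLR had an r of 0.541 (permutation p = 0.0672, adjusted 0.269, and rho = 0.615, permutation p = 0.0368, adjusted 0.221). Their r was 0.415 without alfalfa hay cow 6 and corn stover cow 4, the 2 farthest from the median IGF1 level. Within the diets it was 0.576 and 0.562 (exact permutation p = 0.312 and 0.249). The 3 liver pairs with STAT5A lay between -0.215 and 0.079.

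**Figure D5:**
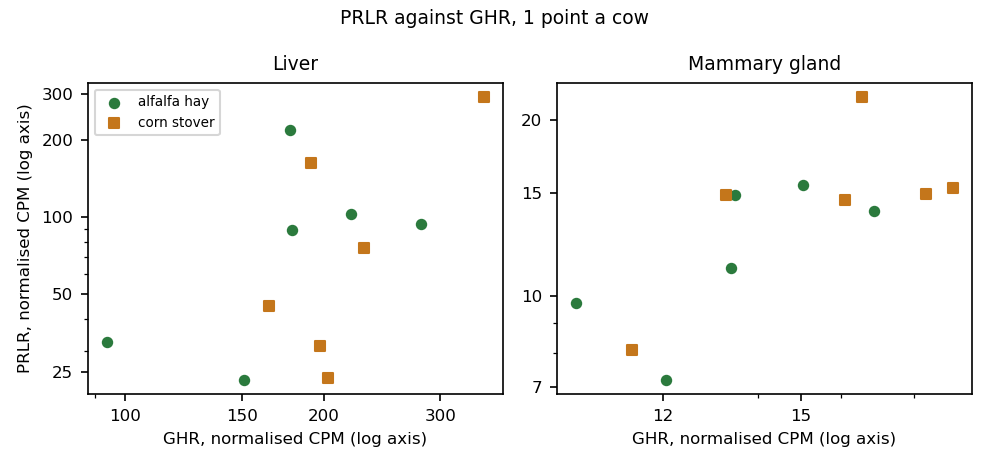
PRLR against GHR in normalised CPM, both on log axes, in liver and in mammary gland, 1 point a cow, green circles for alfalfa hay and orange squares for corn stover. The r is 0.559 in liver, where PRLR spans 23.2 to 293 CPM, and 0.732 in mammary gland, where it spans 7.20 to 21.9 CPM.

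The liver level of a gene was also compared with its mammary level in the same cow, as 4 relations of which 0 passed after adjustment. The r was 0.628 for IGF1 (permutation p = 0.0355, adjusted 0.112; rho = 0.545, permutation p = 0.0718), 0.565 for PRLR (permutation p = 0.0559, adjusted 0.112; rho = 0.462, permutation p = 0.135), 0.279 for GHR (permutation p = 0.392, adjusted 0.523; rho = 0.189, permutation p = 0.560) and 0.079 for STAT5A (permutation p = 0.807, adjusted 0.807; rho = 0.147, permutation p = 0.648). Without the 2 cows farthest from the median liver level they were 0.334, 0.326, 0.174 and -0.111. Leaving out these cows narrows the range of liver levels, which can by itself lower r. For PRLR the cow with the highest liver level, corn stover cow 1, also had the highest mammary level, 293 and 21.9 CPM. Within diets the r was 0.410 for alfalfa hay and 0.764 for corn stover (exact permutation p = 0.426 and 0.0681). For IGF1 corn stover cow 4 was highest in both tissues and alfalfa hay cow 6 lowest in liver. The r within diets was 0.738 on alfalfa hay (exact permutation p = 0.00556, adjusted over 8 within-diet relations 0.0444; rho = 0.886, exact permutation p = 0.0333) and 0.62 on corn stover (exact permutation p = 0.189), and 0.273 over the corn stover cows other than cow 4. The alfalfa hay value passed this adjustment, on mammary levels of 7 to 13 reads per library.

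Among all genes tested in a tissue, the gene with the pattern most like each of the 4 was taken by Pearson's r over 12 libraries, as a description; the points share libraries and scaling factors. In liver this was ENSBTAG00000005247 for GHR (r = 0.935), a gene at 0.620 to 3.12 CPM, and ENSBTAG00000001246 for IGF1 (r = 0.925), a gene at 361 to 1190 CPM. In mammary gland it was ENSBTAG00000013196 for PRLR (r = 0.938), at 5.55 to 15.2 CPM, and ENSBTAG00000017379 for STAT5A (r = 0.961), at 18.6 to 48.3 CPM. Each is the highest r of a search among 12929 genes in liver or 12027 in mammary gland. The lowest r of the same searches were -0.924, -0.889, -0.933 and -0.913 for GHR, IGF1, PRLR and STAT5A. How high such a search reaches without any true likeness was not tested. In the tissue not used for the choice, the 4 values of r were 0.129, 0.179, 0.62 and 0.323 in the same order. These genes have no name in the files.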

How the data were processed

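The authors deposited raw read counts per Ensembl bovine gene, 1 file per library, with 24616 genes in each. The build UMD3.1 and the tools HTSeq 0.6.1, TopHat2 2.0.9 and SAMtools 1.1 are named in the submitters' processing notes. For the annotation release and strand setting, the sources used here give nothing. Empty lines at the end of the liver files were dropped. Of the identifiers, 0 matched the RefSeq gene table, so planned pathway and marker lists could not be applied. The 4 genes and the rules were chosen with earlier results of these data known.

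Tests used edgeR 4.0.16 (quasi-likelihood, filterByExpr with minimum count 10 and minimum total count 15, TMM, Benjamini-Hochberg over all genes, threshold 0.05) in R 4.3.3. They were diet within a tissue (12 libraries), and tissue and interaction (24 libraries, 4 group means). The fits were also run on simulated counts, with no cow shared between libraries and changes larger than the main diet differences of the 4 genes. No least share of recovered genes was set there for interaction or milk yield. The SE is the log2 difference divided by the square root of F. Correlations used log2 CPM with 0.5 reads added, 100000 two-sided permutations over 12 cows and exact ones (two-sided) within diets. Named are the 4 genes and, for each, the gene most like it. Milk yield, parity and days in milk were identical in the labels for the liver and mammary library of a number, so these were taken as 1 cow; their deviations from the group means correlated at -0.159 to 0.328. Alternatives were RLE, library totals, other filters, DESeq2 1.42.0, limma voom 3.58.1, covariates, blocks and left-out cows. Intervals are for the fitted difference between groups. They rest on the spread between these cows and do not describe that spread.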

Additional observations from a re-analysis of the deposited data

Results flagged for a closer look

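In 16 groups of 6 levels, 2 held a library far from the other 5, where chance would give about 0.80. Hepatic GHR in corn stover replicate 1 was at 349 CPM, and the next highest of its group was at 230 CPM. Its TMM factor was 0.778, and per library total it was at 272 CPM against 253 CPM for the next. Hepatic IGF1 in alfalfa hay replicate 6 was at 8.33 CPM, and the next lowest of its group was at 17.95 CPM. Per library total it was at 9.10 CPM, and the next lowest, replicate 1, at 12.6 CPM. The same liver had the lowest GHR of all 12, 93.8 CPM.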

How the results depend on the processing

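The counts of the 4 genes that passed were the same under every alternative that gave one: 4 by tissue, and 0 by diet in liver, by diet in mammary gland, by interaction and by milk yield in liver. DESeq2 gave no adjusted p for the 4 genes in the interaction and so no count there. Over all genes, DESeq2 called 3, 42, 74 and 1 in the last 4 comparisons, and edgeR with all 24 libraries in 1 fit called 3 by diet in liver. The diets share replicate numbers that name different cows: same-numbered livers deviated together at r = 0.0555 to 0.541 (3 of 6 matched their own number best) and mammary libraries at -0.235 to 0.264 (2 of 6). With the replicate block edgeR called 12 genes in place of 0 by diet in mammary gland, none of them among the 4 genes (STAT5A -0.41, adjusted p = 0.743). With the cow as a replicate block no call among the 4 genes changed. Of pairs within a tissue 1 passed with library totals, and of relations between tissues 0 to 1 did when cows were left out in turn, PRLR without alfalfa hay replicate 4.

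Signs turned for values that passed no test, and the cause was not tested. Parity 3 cows alone gave a GHR interaction of 0.039 and a PRLR liver difference of -0.42; days in milk as a covariate gave -0.087 for IGF1 and -0.29 for PRLR; limma voom gave -0.038 and the fit without the first replicates -0.46 for PRLR. Without diet the milk slopes were -0.00091 (GHR), -0.022 (IGF1) and -0.029 (STAT5A). With cows left out in turn, the PRLR liver difference ran from -0.45 to 0.62, the GHR interaction from -0.22 to 0.094, the PRLR interaction from -0.31 to 0.61 and the STAT5A slope from -0.013 to 0.083. Likewise r with yield in liver ran from -0.125 to 0.082 (GHR) and -0.173 to 0.365 (IGF1), and r between tissues for STAT5A from -0.231 to 0.283. Residuals from diet means gave r with yield of 0.462 (GHR) and 0.132 (STAT5A). Library totals gave -0.048 (IGF1 with yield) and -0.051 (STAT5A between tissues), and the 7 livers of the other header kind gave -0.051 for IGF1. Mammary IGF1 rests on 3 to 22 reads per library.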
